A study of Mus musculus with 2 samples.

Results

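The data concern 10 genes of endothelial growth in the mouse liver, out of the 34244 genes of the deposited lists. They are the VEGF receptors Kdr, Flt1 and Flt4, the neuropilins Nrp1 and Nrp2, the angiopoietin receptor Tek and its relative Tie1, and 3 genes often used to mark tip cells, Esm1, Apln and Angpt2. They were chosen by name, not by a measured value, and raw UMIs (unique molecular identifiers, 1 per captured 3′ end of a transcript) were described over endothelial cells gated on other genes. The study prepared 1 droplet 3′ single-cell library from each of 2 C57/BL6 mouse livers, after hepatocytes had been spun out and held back on a 30 µm strainer and red cells lysed. The Control mouse received peanut oil, although its treatment label reads "Untreated", and the other received PCB126 at 20 µg/kg/day, with an exposure of 5 weeks and a fast of 12 hours given for both. The protocol speaks of a single gavage while the dose is stated per day, and the label for age, postnatal day 21, is not tied to a time point. PCB126 is a dioxin-like pollutant and an agonist of AHR, the aryl hydrocarbon receptor. With 1 mouse per group, mouse, library and treatment cannot be told apart, no test between groups was made, and "higher" and "lower" compare these 2 libraries only.

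VEGF-A, made by cells short of oxygen and by many epithelia, binds KDR (VEGFR2), the main signalling receptor of blood endothelium, and FLT1 (VEGFR1), which binds VEGF-A tightly and can act as a decoy. FLT4 (VEGFR3) binds VEGF-C and VEGF-D and, besides lymphatic vessels, is made by the fenestrated sinusoids of the liver. Neuropilins hold VEGF forms and class 3 semaphorins next to these receptors and to plexins. TEK (Tie2) is switched on by angiopoietin-1, ANGPT2 usually opposes this, and TIE1 modulates TEK. In a growing vessel the leading tip cell makes ESM1, apelin (Apln) and ANGPT2, and Notch signalling from DLL4 restrains its neighbours.

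The Control library held 8550 barcodes and 24134912 UMIs, and the PCB126 library 4307 barcodes and 16269562 UMIs. With at least 500 UMIs, 250 genes and at most 20% mitochondrial UMIs per barcode, and likely doublets left out, 1856 and 1111 cells remained. The 2 libraries shared 3 barcodes, none of them a cell that was kept. Mitochondrial share alone removed 412 Control and 1698 PCB126 barcodes, among them 56 and 600 that passed the endothelial gate with up to 50% mitochondrial UMIs. The gate (at least 6 of 16 pan-endothelial markers and at most 2 of 8 leukocyte markers) held 284 Control and 602 PCB126 cells. By a score of 11 sinusoidal against 10 vascular markers, 203 and 488 of these were called sinusoidal endothelial-like, and 81 and 114 vascular endothelial-like. No gate used any of the 10 genes.

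All 11 sinusoidal markers were detected in the sinusoidal cells of both libraries, from 616 CPM (Stab2) to 1634 CPM (F8) in Control, where CPM is the gene's UMIs per 1000000 UMIs of the class. Stab2 stood at 25.8 and 46.1 CPM in the vascular cells. Vwf, the von Willebrand factor of larger vessels, was at 2695 and 1149 CPM in the vascular cells and at 258 and 35.2 CPM in the sinusoidal ones. The gate's own markers thus differed between libraries too, for instance Clec4g with 895 Control and 1459 PCB126 CPM and Dnase1l3 with 1198 and 1749 CPM in sinusoidal cells. The lymphatic markers were near absent from sinusoidal cells, with Prox1 at 6.99 and 1.03 CPM and Ccl21a, Mmrn1 and Pdpn at 0 in both. Within each class a second score gave 2 ranges, which are ranges and not cell types. Sinusoidal cells were split by 8 pericentral against 8 midzonal and periportal markers into 69 and 172 central-side and 134 and 316 portal-side cells. Vascular cells were split by 6 central vein against 11 arterial and portal markers into 54 and 83 vein-side and 27 and 31 artery-side cells. The 10 genes with the largest folds in the vein-side range hold none of the 6 vein markers and 1 arterial one (Fbln5), so that range carries no vessel name. Of the endothelial cells, 25 Control and 34 PCB126 cells lay within 0.25 of the line between sinusoidal and vascular.

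Promoter sequence before the start is shown for 3 genes, the 2 members with the largest departures in sinusoidal cells in either direction (Nrp1 and Esm1) and the receptor with the most UMIs (Kdr). Each is the 250 bases before the transcription start given by RefSeq on GRCm38.p6, written 5′ to 3′ on the gene's strand, for Kdr at chr5:75978456-75978705 (minus strand), for Nrp1 at chr8:128358823-128359072 (plus strand) and for Esm1 at chr13:113209409-113209658 (plus strand). Capitals mark GCGTG or its reverse complement CACGC, the core that AHR with its partner is known to bind.
Kdr: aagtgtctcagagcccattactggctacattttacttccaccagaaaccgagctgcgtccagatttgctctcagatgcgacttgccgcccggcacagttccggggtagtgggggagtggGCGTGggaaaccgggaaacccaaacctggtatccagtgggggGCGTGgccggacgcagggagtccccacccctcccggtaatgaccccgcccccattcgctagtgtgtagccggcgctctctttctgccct
Nrp1: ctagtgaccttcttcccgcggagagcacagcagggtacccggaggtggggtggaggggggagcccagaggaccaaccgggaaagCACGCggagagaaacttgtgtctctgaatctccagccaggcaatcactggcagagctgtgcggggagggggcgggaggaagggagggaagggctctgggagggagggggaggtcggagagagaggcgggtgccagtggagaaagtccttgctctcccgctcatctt
Esm1: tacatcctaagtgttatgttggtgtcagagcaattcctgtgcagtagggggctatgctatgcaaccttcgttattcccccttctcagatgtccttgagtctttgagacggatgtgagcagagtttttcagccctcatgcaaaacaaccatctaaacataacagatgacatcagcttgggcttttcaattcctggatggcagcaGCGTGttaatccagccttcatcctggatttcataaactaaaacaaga
Of the 10 genes, 9 matched a promoter entry, and Angpt2 is named only. Kdr and Nrp2 held 2 GCGTG cores each, Flt1, Nrp1 and Esm1 1 each, and Flt4, Tek, Tie1 and Apln 0. None of the 9 held ACGTG, a common form of the core of hypoxia response elements, on either strand. Other forms of that core were not counted as such. Among 32851 promoter windows of 250 bases, 28.2% held GCGTG and 16.6% held ACGTG on either strand, so the cores are common. The Esm1 window had a GC content of 44.0%, against 61.6% for Kdr and 64.4% for Nrp1. A match describes these letters only. By gene ID, GENCODE M21 on GRCm38 places the protein-coding genes Kdr (ENSMUSG00000062960) at chr5:75932827-75978458, Nrp1 (ENSMUSG00000025810) at chr8:128358604-128503363, Esm1 (ENSMUSG00000042379) at chr13:113209659-113218098 and Angpt2 (ENSMUSG00000031465) at chr8:18690263-18741562.

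In sinusoidal endothelial-like cells 3 of the 10 genes lay past 1.5-fold, Nrp1 higher and Esm1 and Angpt2 lower in the PCB126 library, of which Angpt2 changed sign with at most 10% mitochondrial UMIs per cell. A gene was counted there at a ratio of at least 1.5 in either direction with at least 20 UMIs over both libraries, and all 10 genes reached that minimum. Over all 9375 genes tested the same way, 12% were at least 1.5 times higher and 12.2% at least 1.5 times lower, so the count of 1 higher and 2 lower is near the background. The median log2 ratio of the 10 genes was -0.14, against 0.00 over all genes tested. The plot of ratios shows all 10 genes in both classes.

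**Figure D1:**
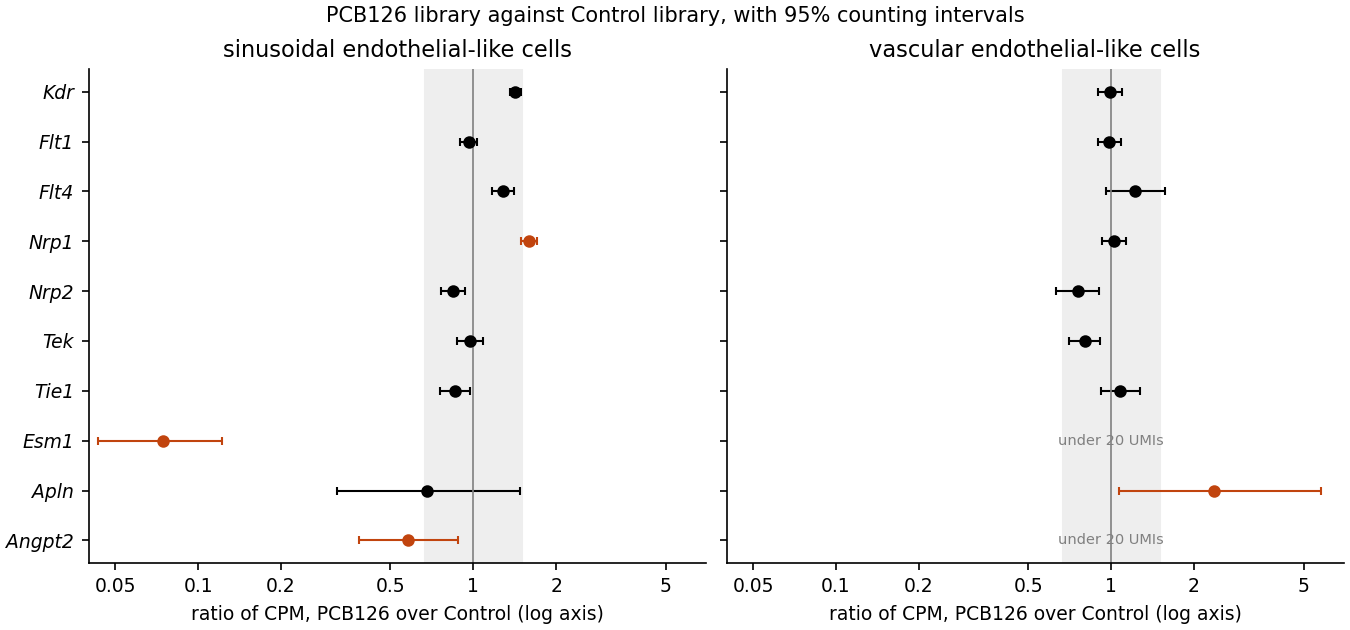
Ratio of CPM, PCB126 over Control, on a log axis for each gene (rows) in sinusoidal and vascular endothelial-like cells, with points for the ratio, bars for the exact 95% interval of counting error, and colour for genes past 1.5-fold (outside the grey band). In sinusoidal cells Nrp1 lies right of the band at 1.60 and Esm1 far left at 0.0746, while in vascular cells the receptors lie between 0.755 and 1.22.

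Kdr had the most UMIs of the VEGF receptors in the sinusoid. It stood at 1714 CPM in Control (2205 UMIs) and 2439 CPM in PCB126 (7136 UMIs), a ratio of 1.42 (95% interval 1.36 to 1.49). All intervals given here are exact and cover counting error only, not the spread between mice. The PCB126 level was the higher one, below the 1.5-fold line, and 98.0% of Control and 99.8% of PCB126 sinusoidal cells held a Kdr UMI. Per cell the median was 1577 CPM in Control and 2405 CPM in PCB126, with quartiles of 1009 to 2303 and 1715 to 3138 CPM, so the cells of both libraries overlapped. The order over the 4 ranges was the same in both libraries. In Control, Kdr was at 2006 CPM in portal-side sinusoidal, 1315 in central-side sinusoidal, 1010 in vein-side vascular and 461 in artery-side vascular cells, and in PCB126 at 2771, 1954, 939 and 574 CPM. No pair of neighbours in these orders had overlapping intervals.

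Flt4 shared the sinusoidal preference. It was at 508 CPM in Control and 651 CPM in PCB126 sinusoidal cells (654 and 1905 UMIs), a ratio of 1.28 (1.17 to 1.40), higher in PCB126 and not past 1.5-fold. In Control it was at 641 CPM in portal-side and 327 CPM in central-side sinusoidal cells, and at 144 and 111 CPM in vein-side and artery-side vascular cells, where the vascular intervals overlapped. The PCB126 values were 763, 487, 164 and 169 CPM, again with the vascular ranges not separated. Flt1 had no such preference. Its sinusoidal level was 874 CPM in Control and 841 CPM in PCB126 (1124 and 2461 UMIs), and the ratio of 0.963 has an interval of 0.897 to 1.03 that includes 1. In Control Flt1 was highest in central-side sinusoidal (1122 CPM) and vein-side vascular cells (1056 CPM), which did not differ beyond counting error, and lower in artery-side vascular (745 CPM) and portal-side sinusoidal cells (691 CPM). In PCB126 vein-side cells led with 1004 CPM, and the central-side (866 CPM), portal-side (824 CPM) and artery-side (815 CPM) intervals overlapped.

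**Figure D2:**
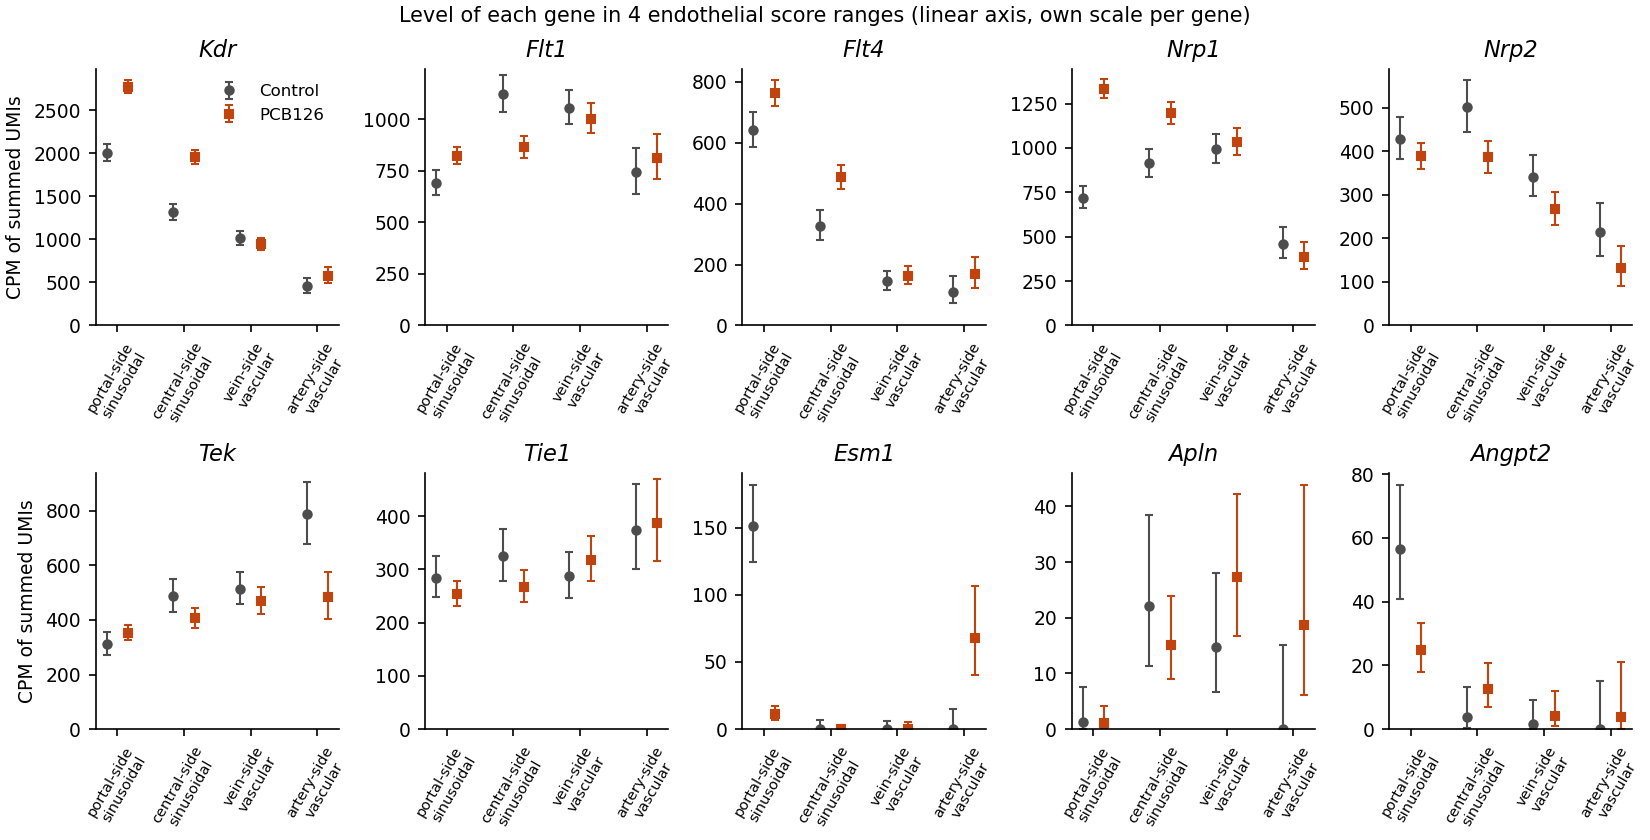
CPM of summed UMIs (linear axis from 0, own scale per gene) for the 10 genes in 4 endothelial score ranges, with circles for Control, squares for PCB126 and bars for the exact 95% interval of counting error. Kdr and Flt4 step down from portal-side sinusoidal to vascular cells in both libraries, and Esm1 in Control is seen in portal-side sinusoidal cells alone, at 151 CPM.

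The neuropilins differed from each other in direction. Nrp1, the co-receptor for VEGF-A, was at 801 CPM in Control and 1278 CPM in PCB126 sinusoidal cells (1031 and 3740 UMIs), a ratio of 1.60 (1.49 to 1.71), higher in PCB126. In portal-side cells it was at 719 and 1334 CPM, a ratio of 1.85 (1.69 to 2.04), and in central-side cells at 913 and 1197 CPM, a ratio of 1.31 (1.18 to 1.46). Thinned to 1000 UMIs per cell, 47.8% of Control and 70.2% of PCB126 sinusoidal cells held an Nrp1 UMI, with 95% intervals of 40.7 to 54.9% and 65.9 to 74.3%. The order of ranges changed with the library. In Control the vein-side vascular (994 CPM) and central-side sinusoidal cells (913 CPM) led with overlapping intervals, and in PCB126 the portal-side sinusoidal cells did (1334 CPM). Artery-side cells were lowest in both, at 461 and 387 CPM. Nrp2, which binds VEGF-C and class 3 semaphorins, was at 459 and 387 CPM in sinusoidal cells (591 and 1133 UMIs), a ratio of 0.843 (0.763 to 0.933), lower in PCB126 and not past 1.5-fold. It was lowest in artery-side cells in both libraries, at 214 and 131 CPM. Nrp2 overlaps Gm29083 on the opposite strand and Gm37121 on its own strand in GENCODE M21, so its UMIs may be shared.

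The Tie receptors were close to level between libraries in the sinusoid. Tek was at 385 CPM in Control and 375 CPM in PCB126 (496 and 1096 UMIs), a ratio of 0.972 (0.873 to 1.08), but with classes from Leiden clusters (an unsupervised grouping) its log2 ratio went from -0.04 to 0.64. Tie1 was at 302 and 259 CPM (388 and 758 UMIs), a ratio of 0.859 (0.759 to 0.974), slightly lower in PCB126. Tek, unlike Kdr and Flt4, was highest in artery-side vascular cells of the Control library, at 786 CPM, against 513 CPM in vein-side, 487 CPM in central-side and 311 CPM in portal-side cells. In PCB126 this step was smaller, with 484, 470, 407 and 353 CPM in the same order and each pair of neighbours overlapping. Tie1 varied little over the ranges, from 284 to 375 CPM in Control and from 254 to 387 CPM in PCB126, and was also highest in artery-side cells.

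Esm1, a secreted proteoglycan of tip cells, had the lowest ratio of the 10 genes in the sinusoid. It had 112 UMIs in Control sinusoidal cells and 19 in the larger number of PCB126 cells, which is 87.0 and 6.49 CPM. The Control level was 13.4 times higher (8.20 to 23.1), and a lower ratio was seen for 0.0960% of all genes tested. An Esm1 UMI was found in 37 of 203 Control cells (18.2%) and in 9 of 488 PCB126 cells (1.84%). After thinning to 1000 UMIs per cell the shares were 8.37% (4.95 to 13.1%) and 0.616% (0.127 to 1.79%). In neutrophil-like cells, which should lack the gene, 0.502% of Control and 1.09% of PCB126 cells held an Esm1 UMI, at median depths of 3616 and 3922 UMIs against 5904 and 5656 in the sinusoidal cells. The PCB126 share of neutrophil-like cells is 1 of 92, with an interval up to 5.91% that holds the sinusoidal share, and 0 of 92 after thinning. Barcodes of few genes had Esm1 at 4.44 CPM in Control and 0.969 CPM in PCB126. The 9 PCB126 sinusoidal cells held up to 7 UMIs each. All 112 Control UMIs and all 19 PCB126 UMIs lay in portal-side cells (151 and 10.9 CPM), and central-side and vein-side cells had 0 in both libraries, which allows up to 5.51 and 4.92 CPM in Control. Artery-side cells had 0 UMIs in Control and 18 in PCB126, all 18 in a single cell. Esm1 overlaps Gzmk on the opposite strand, and whether the counting used the strand is not stated in the labels or headers.

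Angpt2, the antagonist ligand of TEK, was also portal-side in Control. It had 44 UMIs in Control and 58 in PCB126 sinusoidal cells, 34.2 and 19.8 CPM, so the Control level was 1.72 times higher (1.14 to 2.60). This direction turned with at most 10% mitochondrial UMIs per cell, where the log2 ratio went from -0.79 to 0.16. In portal-side cells it was at 56.6 and 24.7 CPM, with Control 2.29 times higher (1.46 to 3.58), and in central-side cells at 3.67 and 12.6 CPM from 2 and 15 UMIs. In PCB126 the portal-side and central-side intervals overlapped (17.9 to 33.3 and 7.07 to 20.8 CPM). An Angpt2 UMI was found in 13.8% of Control and 9.84% of PCB126 sinusoidal cells, and thinned to 1000 UMIs in 5 and 12 cells, 2.46% in either library. The log2 ratio in portal-side cells was -0.30 after thinning, against -1.19 without. Angpt2 overlaps Mcph1 on the opposite strand. Apln, the ligand of the apelin receptor, was rare. It had 13 Control and 20 PCB126 UMIs in sinusoidal cells, 10.1 and 6.84 CPM, a ratio of 0.677 (0.320 to 1.48) whose interval includes 1. Its log2 ratio went from -0.58 to 1.06 with cells thinned to 1000 UMIs and to 1.69 with classes from Leiden clusters. Unlike the other tip-cell genes, it was lower in portal-side cells (1.35 and 1.15 CPM) than in central-side (22.0 and 15.2 CPM) and vein-side cells (14.8 and 27.3 CPM). These levels rest on few UMIs, in Control central-side cells on 12, of which 1 cell held 6. Artery-side cells had 0 Apln UMIs in Control and 5 in PCB126 (18.8 CPM), all in 1 cell.

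Cells with UMIs of 2 tip-cell genes were counted, although at a few UMIs a gene can be missed in a cell that makes it. Among all endothelial cells, 37 Control cells held Esm1, 29 held Angpt2 and 10 held both, 27.0% of the first and 34.5% of the second. In PCB126, 10 cells held Esm1, 51 held Angpt2 and 3 both. Esm1 and Apln met in 0 Control cells and 1 PCB126 cell. The 5 richest cells held 36.6% of the Control Esm1 UMIs and 86.5% of the PCB126 ones. In portal-side cells of zone score below -1, receptors were compared between cells with and without an Esm1 UMI in Control (34 and 58 cells of median depth 5338 and 5356 UMIs). Kdr was at 2201 against 1793 CPM and Flt4 at 775 against 498 CPM, with intervals that did not overlap, and Flt1 at 583 against 639.5 CPM with intervals that did. The groups were not matched for zone, as 25 of the 34 cells with an Esm1 UMI lay below -2. Over all Control sinusoidal cells Kdr was at 2138 CPM below -2 and 1660 CPM between -2 and -1, and the part of zone was not tested. Angpt2 was at 90.5 against 41.8 CPM, from 16 and 13 UMIs. In PCB126 the same comparison (9 and 188 cells) gave no separation. Kdr was at 3217 against 2748 CPM and Flt4 at 737 against 785 CPM, both with overlapping intervals.

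**Figure D3:**
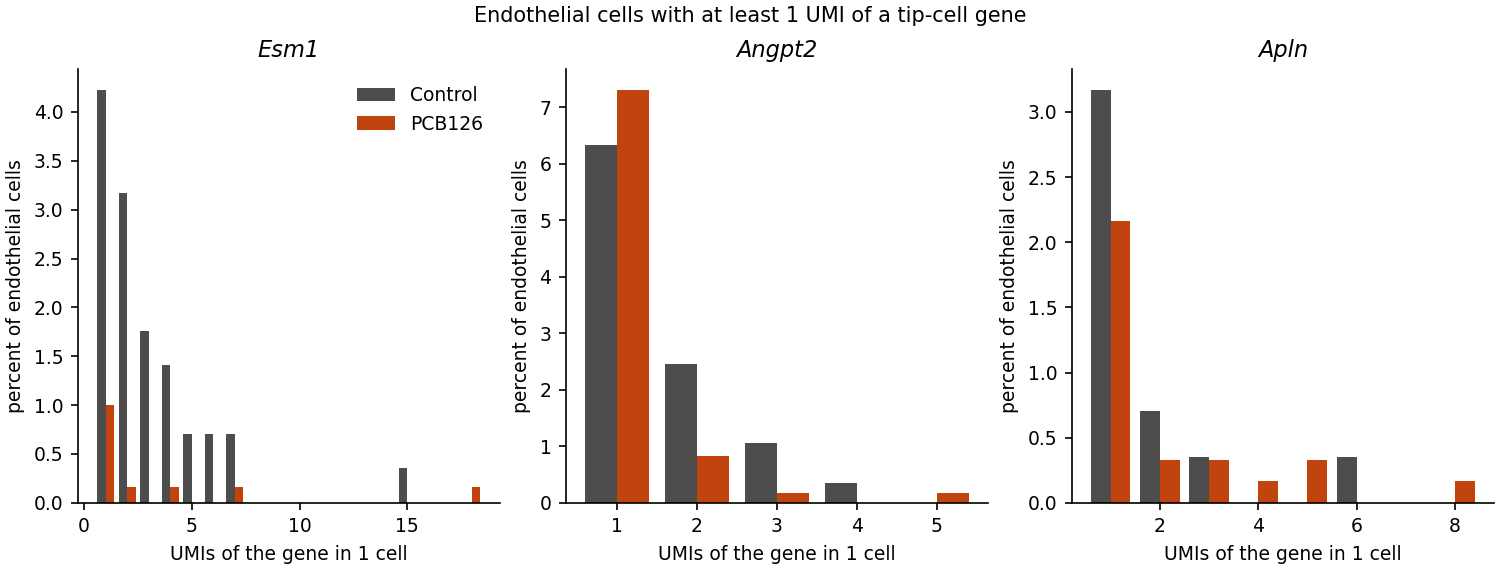
Percent of endothelial cells (linear axis from 0) against the UMIs of Esm1, Angpt2 or Apln in 1 cell, for cells with at least 1 UMI, with grey bars for Control (284 cells) and red bars for PCB126 (602 cells). For Esm1 the grey bars stand above the red ones at 1 to 7 UMIs, and 1 PCB126 cell has 18.

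Along the zone score the sinusoidal cells were also cut into 5 bins, from below -2 (most portal-side) to above 1 (most central-side), with 55, 37, 42, 36 and 33 Control and 47, 150, 119, 70 and 102 PCB126 cells. Dll4, itself a tip-cell gene, is 1 of the markers in this score. Esm1 was lower bin by bin in Control, at 290, 124 and 15.7 CPM and then 0, and in PCB126 it was at 58.3 and 5.00 CPM and then 0. In the lowest bin the ratio was 0.201 (0.108 to 0.352). That bin is open-ended, and its cells with an Esm1 UMI reached a score of -3.47 in Control and -2.79 in PCB126, so the libraries are not matched within it. Between -2 and -1 the ratio was 0.0402 (0.0102 to 0.117), from 25 Control and 4 PCB126 UMIs. Nrp1 was higher in PCB126 in each of the 5 bins. Its ratios were 1.60, 2.78, 1.57, 1.48 and 1.17, with every interval above 1 and the smallest in the most central bin. Kdr was higher in PCB126 in each bin too, by 1.10, 1.75, 1.30, 1.83 and 1.31 times, and the interval of the first includes 1. Flt4 was past 1.5-fold only between 0 and 1, at 2.14 times (1.68 to 2.77).

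Flt1 had a slope in Control and none in PCB126. From portal to central side it was at 642, 586, 830, 960 and 1279 CPM in Control and at 797, 835, 822, 809 and 897 CPM in PCB126. The ratio was 0.772 (0.698 to 0.855) over central-side cells and 1.19 (1.08 to 1.32) over portal-side cells, with the difference untested. With each cell thinned to 1000 UMIs the central-side log2 ratio went from -0.37 to 0.057. The portal-side one went from 0.25 to 0.18, so in that setting the directions were no longer opposite. The central-side sign was kept in 15 of 16 settings, and thinning, which leaves fewer UMIs, was the exception. Among the 15 is the Leiden setting (-0.58), whose central-side cluster held 2 Control and 118 PCB126 cells, too few in Control to bear on the sign. Tek was at 629 CPM in the most central bin in Control against 434 CPM in PCB126. In central-side cells 0 of the 8 genes with enough UMIs lay past 1.5-fold (background 12.2% higher and 15.1% lower). Of the 8, 3 had a log2 ratio above 0 and 5 below. Kdr (1.37 to 1.62) and Flt4 (1.26 to 1.77) lay just under the line, both at 1.49, and past it in 6 and 7 of 16 other settings. In portal-side cells 3 of 9 did, Nrp1 higher and Esm1 and Angpt2 lower (17.2% higher and 11.8% lower over 8232 genes).

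**Figure D4:**
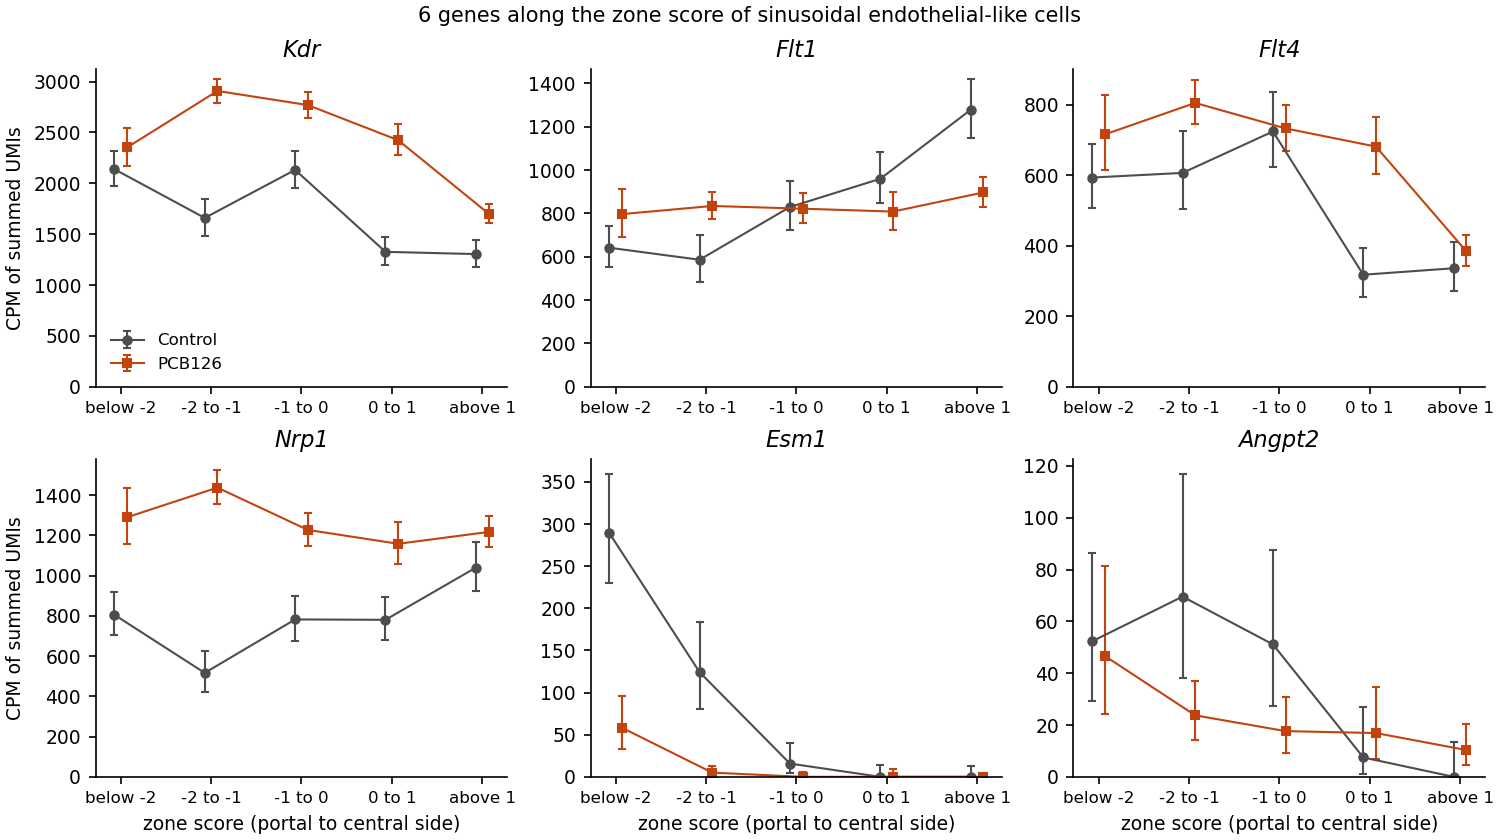
CPM of summed UMIs (linear axis from 0) of 6 genes in 5 bins of the zone score of sinusoidal cells, with circles for Control, squares for PCB126 and bars for the exact 95% interval of counting error. Flt1 in Control reaches 1279 CPM at the central end while PCB126 stays between 797 and 897 CPM, and Nrp1 is higher in PCB126 in every bin.

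In vascular endothelial-like cells 1 of the 8 genes with enough UMIs lay past 1.5-fold, Apln, higher in PCB126 (background 8.18% higher and 15.4% lower over 7922 genes). Apln had 9 UMIs in Control and 25 in PCB126, 10.6 and 25.0 CPM, a ratio of 2.37 (1.07 to 5.77), and a single PCB126 cell held 8 of the 25. With classes from Leiden clusters its log2 ratio went from 1.20 to -0.063, and with each cell weighed equally to 0.44, which is not past 1.5-fold. The VEGF receptors were level. Kdr was at 854 and 842 CPM (ratio 0.986, 0.892 to 1.09), Flt1 at 967 and 953 CPM (0.985, 0.897 to 1.08) and Nrp1 at 842 and 861 CPM (1.02, 0.925 to 1.13). The upper bound for Nrp1 lies below its ratio of 1.60 in the sinusoid, and the difference between the classes was not tested. Flt4 was at 135 and 165 CPM (1.22, 0.960 to 1.57). Nrp2 was at 305 and 230 CPM (0.755, 0.630 to 0.905) and Tek at 591 and 474 CPM (0.801, 0.705 to 0.910), both lower in PCB126 and not past 1.5-fold, while Tie1 was at 312 and 336 CPM (1.08, 0.916 to 1.27). The median log2 ratio of the 8 genes was 0.01, against -0.10 over all genes tested. In vein-side cells Apln alone passed 1.5-fold of 8 genes, at 14.8 and 27.3 CPM with an interval of 0.805 to 4.61 (9.66% higher and 15.7% lower), and its sign turned with Leiden clusters and with cells weighed equally. In artery-side cells, with 27 and 31 cells, 3 of 7 did. Flt4 was higher in PCB126 (111 and 169 CPM, 0.923 to 2.55), and Nrp2 (214 and 131 CPM) and Tek (786 and 484 CPM) were 1.63 and 1.62 times higher in Control (12.2% higher and 20.8% lower over 3863 genes). The difference of Nrp2 vanished with Leiden clusters (log2 ratio 0.00039).

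Signs of RNA quality and of free RNA moved with the library. The median mitochondrial share was 10.7% in Control and 14.6% in PCB126 sinusoidal cells, and 6.69% and 10.97% in vascular cells. Gm42418, a transcript that overlaps ribosomal RNA, took 19.5% and 14.7% of sinusoidal UMIs. The erythroid list was at 3674 CPM in Control and 667 CPM in PCB126 in sinusoidal cells, and at 3631 and 61.1 CPM in vascular cells. The neutrophil list was at 180 (9 of 10 genes, Ly6g at 0) and 20.5 CPM (8 of 10, Cxcr2 and Ngp at 0) in sinusoidal cells. With free RNA, estimated from barcodes of few genes, subtracted, the log2 ratios of Nrp1 and Esm1 in the sinusoid were 0.67 and -3.72, against 0.67 and -3.71 without. With at most 10% mitochondrial UMIs they were 0.66 and -3.46, whereas that of Kdr changed from 0.51 to 0.69. Unsupervised clusters did not hold the same cells in both libraries. Of the gated sinusoidal cells, 46 Control cells but 1 PCB126 cell fell into cluster 16, which had 58 Esm1 UMIs. Cluster 3, with 18 Esm1 UMIs, took 25 and 314 cells, and cluster 9 took 1 and 99. Cluster 4, which the same markers named vein-side vascular, took 54 of the 203 Control and 5 of the 488 PCB126 cells gated as sinusoidal. Clusters 7 and 8, with 40 and 37 Esm1 UMIs, were more even, with 32 and 38 cells in the first and 45 and 31 in the second. The same markers named cluster 7 artery-side vascular and cluster 8 portal-side sinusoidal, so the portal-side place of Esm1 holds for the gate and not for every cluster. The sinusoidal ratios thus set cells of partly different clusters side by side.

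Outside the endothelium the receptors were low, except the neuropilins. Kdr was at 2.97 and 10.3 CPM in neutrophil-like, 1.14 and 10.1 CPM in dendritic-like and 0.848 and 4.56 CPM in cholangiocyte-like cells. Nrp1 was at 272 CPM in 4 Control and 129 CPM in 10 PCB126 macrophage-like cells and at 36.6 and 38.5 CPM in dendritic-like cells, and Nrp2 was at 145 and 36.9 CPM in the macrophage-like ones. Of the ligands, some were higher in other cells than in the endothelium and others were found in the endothelial cells themselves. Vegfa was at 23.3 and 23.6 CPM in sinusoidal cells, 173 and 242 CPM in cholangiocyte-like and 46.6 and 51.4 CPM in neutrophil-like cells. Angpt1, the agonist of TEK, had 0 UMIs in both endothelial classes and stood at 109 and 106 CPM in cholangiocyte-like cells. Vegfc, the ligand of FLT4, was at 305 and 267 CPM in artery-side vascular cells, where 55.6% and 71.0% of cells held a Flt4 UMI, and at 14.8 and 5.47 CPM in sinusoidal cells. Sema3f, a class 3 semaphorin, was at 138 and 155 CPM in sinusoidal and 218 and 229 CPM in vascular cells, the classes in which both neuropilins were measured. The apelin receptor Aplnr had 7 UMIs in Control endothelial cells, all in vein-side cells, a range that also held Apln. In PCB126 it had 0 UMIs in vascular and 1 in sinusoidal cells.

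**Figure D5:**
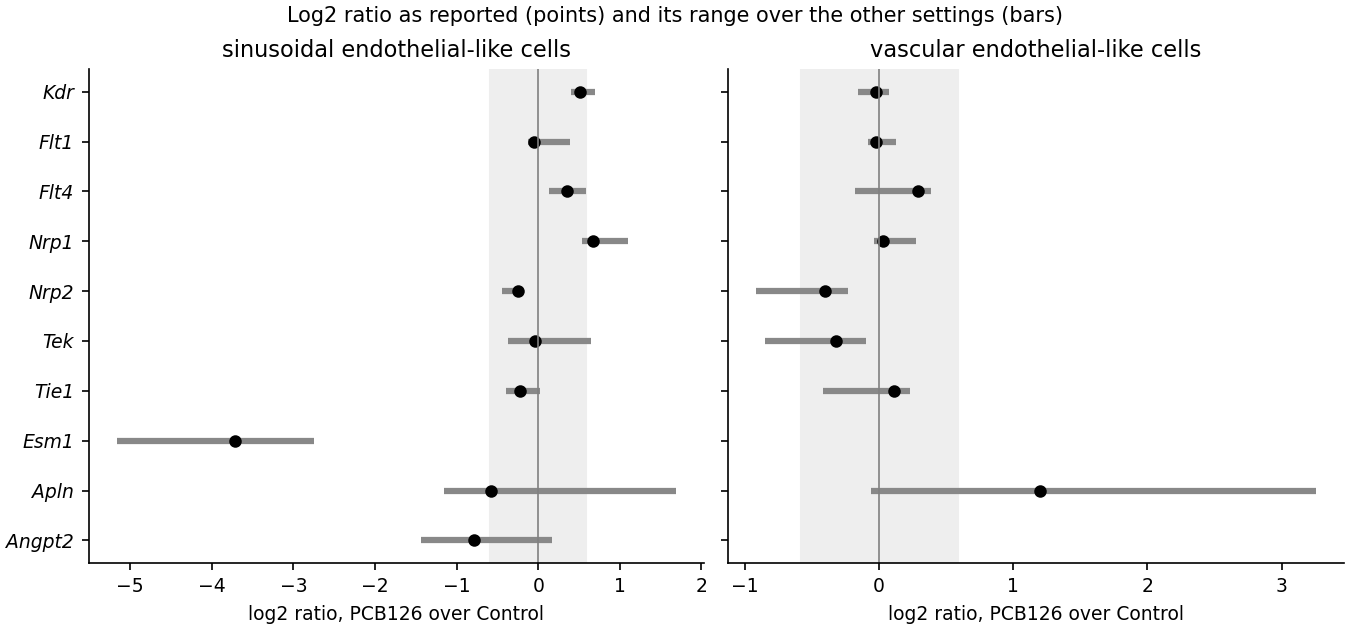
Log2 ratio, PCB126 over Control (linear axis), of each gene with enough UMIs in sinusoidal and vascular endothelial-like cells, with black points for the reported value, grey bars for its range over the other settings tried and a light band for less than 1.5-fold. Esm1 stays left of the band, between -5.17 and -2.75, Nrp1 lies between 0.54 and 1.10, and the bars of Angpt2 and Apln cross 0.

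Over 72 further genes of these pathways, in 9 lists, 48 had enough UMIs in sinusoidal cells, of which 8 were past 1.5-fold higher and 8 lower, against 12% and 12.2% of all genes tested in these cells, with a median log2 ratio of 0.01 (0.00 over all genes). The lists below are counted against the same shares. The VEGF family list had 5 genes, 3 tested, with Vegfb past 1.5-fold higher (18.7 and 28.7 CPM), Vegfc lower and Vegfa level. The tip-cell list beyond the members had 13 genes, 8 of them tested, with 1 higher, 4 lower and a median log2 ratio of -0.41. Its most abundant genes were Mcam (239 and 159 CPM, past 1.5-fold lower) and Trp53i11 (127 and 112 CPM). Chosen after their values were seen, the other genes past 1.5-fold were Pdgfb (113 and 46.5 CPM), which recruits pericytes, Lcp2 (32.6 and 14.7 CPM) and Cd34 (17.9 and 3.76 CPM), all lower in PCB126, and Unc5b, a netrin receptor, higher in PCB126 (1.55 and 22.9 CPM, from 2 and 67 UMIs). Cd34 is also a vascular marker of the score that set the sinusoidal class, so its level there depends in part on the gate. The list of signalling proteins after the VEGF receptors had 9 of 13 genes tested, 2 higher, 0 lower and a median log2 ratio of 0.21. Nck1, an adaptor protein, was at 118 and 137 CPM and Pxn, a focal adhesion protein, at 74.6 and 131 CPM, past 1.5-fold. The second gene past it was Nos3, the endothelial nitric oxide synthase (62.2 and 108 CPM). The VEGF-induced list had 6 of 8 tested, with 1 higher, 0 lower and a median log2 ratio of 0.41. All 6 ratios lay above 1, each with a counting interval that includes 1. Its most abundant genes were Adamts1 (120 and 121 CPM) and Nrarp (41.2 and 47.5 CPM), and Dusp5, named for its value, was the one past 1.5-fold, from 6 and 31 UMIs. In the plexin and semaphorin list 7 of 10 were tested, 0 higher and 2 lower, with Plxnd1 at 538 and 387 CPM and Plxna2 at 157 and 226 CPM. Of the stalk and Notch list 5 of 7 were tested, 0 higher and 1 lower. Notch1 was at 259 and 330 CPM and Hes1, a Notch target, at 107 and 153 CPM, while Dll4, which also set the zone score, was at 76.2 and 51.6 CPM. In the list around TEK and FOXO1 9 of 10 were tested, 3 higher and 0 lower, with Ets1 at 818 and 772 CPM and Klf2, a flow-induced factor, at 215 and 453 CPM. Ptprb, the phosphatase that acts on TEK, was level at 5634 and 5674 CPM, and was the only one tested of 5 in the angiopoietin list.

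In vascular cells 44 of the 72 genes were tested, with 5 higher, 5 lower and a median log2 ratio of -0.19, against 8.18% higher, 15.4% lower and a median of -0.10 over all genes tested. Klf2 was again higher in PCB126 (321 and 582 CPM), as was Unc5b (4.69 and 27.0 CPM), which is named for its value in both classes. Plxnd1 was 1.92 times higher in Control (480 and 250 CPM).

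The genes with the most similar pattern were sought over 20 points, each a cell class in 1 library. These correlations describe points that share a library and a depth. Kdr was most like Adgrf5 (Spearman's rho 0.97), Lyve1 (0.95) and Oit3 (0.95), of which the last 2 are sinusoidal markers of the gate. Flt1 was most like Ptprb (0.95), Eng (0.95) and Thbd (0.91), and Flt4 most like Robo4 (0.97), Scarf1 (0.96) and Spry4 (0.95). Nrp1 had Kank3 (0.95), Gng11 (0.93) and Clec1b (0.93), and Nrp2 had Cnrip1 (0.92), Gm26917 (0.92) and Slc36a4 (0.91). Tek and Tie1 were among each other's 3 most similar genes (0.93). For Esm1 the highest value was 0.81 (Gnai3), below the highest of every other member, and for Angpt2 it was 0.90 (Plet1os). Apln had fewer than 100 UMIs over both libraries and was left out.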

How the data were processed

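The values used are UMI counts as deposited, without normalization. Cell Ranger 6.0.0 wrote them per the file headers. The submitters' processing notes list Seurat 4.0.1 and a later Cell Ranger, 6.1.1. The deposited gene and barcode lists hold other content, namely identifiers in matrix order. The genome build, the annotation and the strand setting are not stated there. Of 34244 gene IDs, 34049 occur in GENCODE M21 (GRCm38), used for overlaps.

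Cells and gates were set as given above. Scrublet scores ranked likely doublets, left out at 0.8% per 1000 barcodes (30 Control and 38 PCB126), while its own threshold called 13 and 1. Scores are means of log2 counts per 10000 UMIs. Gate thresholds and alternatives were set with marker levels seen, and the members, lists and tests were chosen with earlier results of these data known. The names central-side, portal-side, vein-side and artery-side replaced planned cell type names after the marker check. UMIs were summed per class and library. Leiden clusters, used as an alternative, were built without the members. Intervals are exact 95% intervals (Poisson for CPM, Clopper-Pearson for shares, conditional binomial for ratios). PCR copies are collapsed by UMIs, and 3 counts set the limit for a count of 0. Log2 ratios use 0.5 added counts. All 10 members are named. Other genes are the 2 with the most UMIs per list, with exceptions marked. The ratio was tested on simulated data. Python 3.11.15, scanpy 1.11.5, scipy 1.17.1, numpy 2.4.6, pandas 2.3.3, leidenalg 0.10.2, igraph 0.11.9 and matplotlib 3.10.9 were used.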

Additional observations from a re-analysis of the deposited data

Results flagged for a closer look

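The ratio of Flt1 pointed in opposite directions on the 2 sides of the sinusoid, at 0.772 over central-side cells and 1.19 over portal-side cells, and this difference was not tested. With each cell thinned to 1000 UMIs the central-side log2 ratio was 0.057 in place of -0.37, and the directions were then the same. Thinning leaves fewer UMIs, and the central-side sign was kept in 15 of 16 settings, all but this one. Of those 15, the Leiden setting had only 2 Control cells on the central side. Cells that met no class held Kdr at 174 CPM (142 to 211) in the PCB126 library, against 149.5 CPM (121 to 182) in the Control library, with overlapping intervals. A single Control cell held 34 of the 98 Control UMIs. These unassigned cells, 93 Control and 59 PCB126, enter no comparison of the report.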

How the results depend on the processing

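Of 50 log2 ratios, each computed again under up to 17 other settings, 25 kept their sign in every setting, and of the 11 past 1.5-fold 3 stayed past it in all. Esm1 in sinusoidal cells stayed past 1.5-fold in all 17, from -5.17 to -2.75 (log2), and Nrp1 in 15, from 0.54 to 1.10. Of those 11, 7 kept their sign in every setting. Among the others the sign turned for Angpt2 in sinusoidal cells with at most 10% mitochondrial UMIs (0.16), for Apln in vein-side cells with each cell weighed equally (-0.18), and, with classes from Leiden clusters, for Apln in vascular (-0.063) and vein-side cells (-0.35) and for Nrp2 in artery-side cells (0.00039). Ratios under 1.5-fold also turned, past 1.5-fold on the other side with Leiden clusters for Tek (0.64) and Apln (1.69) in sinusoidal and Flt4 in vein-side cells (-0.81), and with cells thinned to 1000 UMIs for Apln in sinusoidal (1.06) and central-side (1.00), Tie1 in vein-side (-0.62) and Nrp1 in artery-side cells (0.69). In sinusoidal and in central-side cells alike, an Apln UMI was left in 0 Control and 2 PCB126 cells after thinning. Turns that ended nearer to 0 include Flt1 in sinusoidal cells (0.39, Leiden clusters) and in central-side cells (0.057, thinned). With Leiden clusters 5 members passed in sinusoidal cells in place of 3, and the median of all genes tested there moved to 0.22. In vascular cells 1 member passed, against 2 with cells thinned to 1000 UMIs, 0 with cells weighed equally, 0 at a minimum of 100 UMIs per gene and 3 with no minimum, where fewer or more genes can count. The other causes were not tested. The settings with a sinusoidal against vascular line of 0, Ly6a left out, zone bins weighed equally, and the richest cell of each gene left out were chosen after seeing the data. No paired analysis was possible because each group holds 1 library, and for the same reason no replicate could be left out. Depth limits Apln, Angpt2 and Esm1 in vascular cells, with at most 25 UMIs in either library.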
